A study of Xenopus laevis with 20 samples.

Results

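The non-additive part of the joint response to Pax3 and Zic1 was measured in *Xenopus laevis* animal caps as the distance between the level reached with both factors and the level that the separate effects predict. For each probe set, the short group of array probes that reads 1 transcript, the predicted value was the Pax3GR mean plus the Zic1GR mean minus the GR mean, all in log2 intensity, so that effects that multiply on the linear scale add up. The non-additivity is the combination mean minus that prediction, equal to the combination mean minus the Pax3GR mean minus the Zic1GR mean plus the GR mean. Probe sets were kept where the predicted value lay between log2 4 and 15, which held for 18749 of 32539 probe sets other than array controls. Of the rest, 13589 were predicted below this range and 201 above it.

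Embryos received mRNA at the 2-cell stage for Pax3GR, for Zic1GR, for both (the combination, labelled Pax3GR/Zic1GR) or for GR alone as the control, and each group holds 5 arrays, 20 in all. The GR domain, taken from the glucocorticoid receptor, holds a fused protein inactive until dexamethasone binds it, and all 4 groups, controls included, were cultured with dexamethasone for 8 h. Caps, the prospective ectoderm at the animal pole, were cut at blastula stage 9. The labels give no mRNA amount, so whether the combination held the full amount of each mRNA is not known, and they call the arrays biological replicates without naming clutches.

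Pax3, a paired-box factor, and Zic1, a zinc-finger factor, mark the border between neural plate and epidermis, from which the neural crest, the preplacodal ectoderm and the hatching gland arise. Without added factors a cap develops as epidermis. In earlier work in *Xenopus*, Pax3 alone was linked to hatching gland fate, Zic1 alone to preplacodal fate, and the pair to neural crest. A gene that needs both factors would lie above the sum of their separate effects, a gene that either factor brings to the same level would lie below it, and a gene that 1 factor induces and the other blocks would lie below it as well.

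Probe sets of *pax3* and *zic1* did not all stay at the GR level in the group of the other factor. The 2 probe sets of *zic1.S* had means of 5.17 and 7.69 in GR, 13.09 and 13.98 in Pax3GR, 10.95 and 12.56 in Zic1GR, and 12.70 and 13.78 in the combination. Both probe sets were thus lower in GR than in every other group, and higher in Pax3GR than in Zic1GR. A *pax3.S* probe set read 2.36 ± 0.11 in GR, 13.27 ± 0.04 in Pax3GR, 10.01 ± 1.14 in Zic1GR and 12.92 ± 0.08 (SD, n = 5) in the combination. The probe sets of *pax3* disagree, since 3 of *pax3.L* were high in GR and did not rise with Zic1GR, with means of 14.002, 14.14, 13.61 and 13.91 for one, 13.56, 13.75, 13.36 and 13.59 for another and 9.45, 9.64, 8.11 and 9.05 for the last in GR, Pax3GR, Zic1GR and the combination. These 3 are members, and Zic1GR was called below GR in the first (adjusted p = 0.0251) and the last (0.00972). Other *pax3.L* probe sets were below log2 4 in GR and called above GR with Zic1GR. In the same order, 1 had 2.22, 12.93, 11.50 and 12.93 (adjusted p = 1.55e-15 for Zic1GR against GR). Another had 2.28, 7.72, 3.68 and 7.77 (0.0171), so its Zic1GR mean was still below log2 4, and it is a member with a prediction of 9.12. The predicted values of 18.87 and 18.86 for *zic1.S*, 20.92 for *pax3.S* and 22.21 for a *pax3.L* probe set lay above the range. Those probe sets are therefore not among the 18749. Whether the *pax3* and *zic1* probe sets read the injected mRNA, the embryo's own, or both was not tested. The array that correlated least with the others of its group was at a mean r of 0.881 in Pax3GR (replicate 1), 0.963 in GR (replicate 3), 0.925 in Zic1GR (replicate 5) and 0.922 in the combination (replicate 4). Between 18949 and 19239 probe sets reached log2 4 on each array. In whole caps, fewer cells of a type and less RNA per cell cannot be told apart.

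Testing was limited to the 20519 probe sets that reached log2 4 on 5 or more arrays. limma was fitted across all of them, and a call needs a Benjamini-Hochberg adjusted p under 0.05. The filter passed 18361 of the 18749 members and left 388 untested. Percentages of all tested count every tested probe set that met the same rule, in or out of the predicted range, and stand beside the members as background. Of all tested probe sets, Pax3GR raised 27.3% and lowered 23%, Zic1GR raised 28.6% and lowered 22.8%, and the combination raised 24.6% and lowered 20.3%, each against GR. Non-additivity was called for 6051 of the 18361 members (32.96%), beside 36.6% of all tested. The combination was above the sum for 2210 of them and below it for 3841, beside 17% and 19.6% of all tested. The number not called was 12310, and for 5683 of these the 95% interval of the non-additivity lay within 1 log2 of 0, whereas for 6627 it reached 1 log2 or more, so additivity was not shown for them. The median non-additivity was -0.19 over members and -0.12 over all tested probe sets. Of the 6055 members that neither factor alone changed, 38 were called above the sum and 78 below it. Most non-additive members were thus among those that a single factor moved. The single-factor and GR means that decide this also enter the non-additivity, so it is a description and not a test.

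The limits of the range matter for the balance of directions. Among probe sets predicted between log2 4 and 5, 258 of 1030 were called above the sum and 32 below it, and among those just outside, between 3 and 4, 266 of 670 were above and 2 below. At the other end, 188 of 519 predicted between 14 and 15 were below the sum and 2 above it, against 71 and 0 of 86 between 15 and 16. With no limit on the prediction the number above the sum was 3482.

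Members with a called non-additivity of at least 1 log2, 1619 above and 2461 below the sum, beside 14% and 12.9% of all tested, were sorted by which of the 4 levels differed. Below the sum, 1515 were an overlapping rise (both factors alone raised the gene and the combination was not below both), 353 a Pax3 rise that Zic1 suppressed, 266 a Zic1 rise that Pax3 suppressed, 52 a mutual suppression (both raised it and the combination was below both) and 14 a combined fall (the combination was below all 3 other groups, with no single rise). Above the sum, 1130 were an overlapping fall, 262 a one-sided relief (1 factor lowered the gene and the combination was above that level), 15 a synergistic rise (the combination was above all 3 other groups) and 8 a mutual relief (both lowered it and the combination was above both). The remaining 465 (2.53% of members, beside 2.72% of all tested) met none of these rules.

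**Figure D1:**
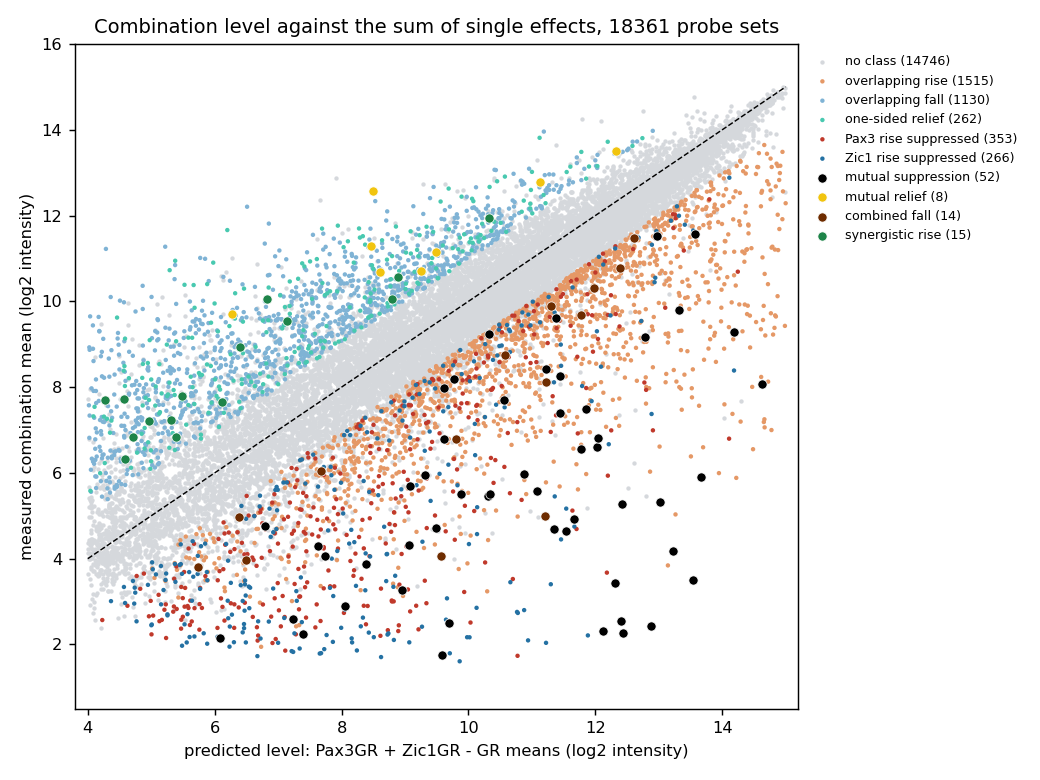
Measured mean of the combination (log2 intensity) against the level predicted from the separate effects, 1 point per tested probe set with a prediction between 4 and 15, coloured by class with the number in each. The dashed line marks equality, and the 52 mutual suppression points lie below it while the 15 synergistic rise points lie above it.

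Synergy on the log scale was rare among members. The 15 synergistic probe sets were 0.0817% of members, beside 0.107% of all tested, and their median non-additivity was 2.13, with a range of 1.24 to 3.44. A gene near background in all groups but the combination can be predicted below the range, and is then not a member. With no limit on the prediction the class held 22 tested probe sets. They cover 5 named genes when 1 probe set is taken per gene, and only the nuclear receptor gene *nr1i2.S* had 5 combination values above every other array. *nr1i2.S* measured 2.89, 3.05, 4.72, 2.84 and 2.68 on the GR arrays, 6.08, 5.097, 5.01, 5.32 and 5.34 with Pax3GR, 2.56, 2.34, 2.23, 2.31 and 2.76 with Zic1GR and 8.02, 6.29, 9.103, 6.61 and 8.58 with both. Its combination arrays were all higher than any Pax3GR array, and its Zic1GR arrays were all below log2 4. The combination exceeded the prediction of 4.57 by 3.15 ± 0.67 (SE, n = 5 arrays per group, adjusted p = 0.00186).

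The other 4 were *znf703.S*, a zinc-finger corepressor gene, *bmp2.S*, a BMP ligand, *sfxn3.L*, which codes for a mitochondrial serine carrier, and *cer1.S*, a secreted inhibitor of BMP, Nodal and Wnt signals. *znf703.S* gave log2 intensities of 7.36, 6.996, 6.86, 7.39 and 6.65 in GR caps, 11.50, 11.33, 11.04, 11.02 and 10.79 in Pax3GR caps, 6.41, 6.38, 6.04, 6.08 and 6.25 in Zic1GR caps and 11.87, 11.88, 12.43, 12.21 and 11.38 in the combination. All Zic1GR values lay below all GR values, and the combination and Pax3GR ranges overlapped. Zic1GR lowered *znf703.S* by 0.82 (adjusted p = 0.00191), yet the combination was above Pax3GR by 0.82 (adjusted p = 0.0105) and above the sum by 1.64 ± 0.27 (SE, n = 5 arrays per group, adjusted p = 2.31e-04). The means of *bmp2.S* were 5.40, 6.44, 5.06 and 7.66 in GR, Pax3GR, Zic1GR and the combination, with a non-additivity of 1.55 (adjusted p = 0.0293). The means of *sfxn3.L* were 8.29, 8.23, 7.21 and 9.55 in the same order, with 2.40 (adjusted p = 0.00183). The *cer1.S* values on the combination arrays were 9.17, 8.55, 7.84, 6.81 and 6.17, against 6.69, 7.97, 2.24, 2.26 and 2.18 on the Pax3GR arrays, and all GR and Zic1GR arrays were below log2 4. The *cer1.S* ranges overlapped, its adjusted p was 0.0491, and the call was lost on leaving out any of 16 of the 20 arrays. The call of *bmp2.S* was lost without combination replicate 3 (adjusted p = 0.0552), with array weights (0.0728) and without the 4 arrays that correlate least with their group (0.0835). Without Pax3GR replicate 2 the class held 25 probe sets. All 15 also lay above the sum of the separate effects on the linear scale, but so did every member with a combination called above the 3 other groups.

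Several neural crest regulators had their highest mean with both factors, and their distance from the sum differed in sign and was mostly not called. A count added after the data were seen took members whose combination was called above GR, Pax3GR and Zic1GR, with no condition on the non-additivity. There were 64, beside 0.395% of all tested probe sets, covering 26 named genes at 1 probe set each. Of the 64, 18 were called above the sum, 6 below it and 40 in neither direction. On the linear scale all 64 lay above the sum of the separate effects, so the sign for the 6 depends on the scale. Both factors alone raised 29 of them, Pax3GR alone 13, Zic1GR alone 4, and 18 were raised by neither.

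The crest genes on this list were *snai2.L*, *foxd3.S*, *sox9.L*, *sox9.S*, *sox8.L* and *pdgfra.L*. They were picked for a high combination and do not stand for all crest genes. Among 34 neural crest members, the combination was called above Pax3GR in 11 and below it in 4. Against Zic1GR it was above in 13 and below in 7. *snai2.L* was at 8.304, 7.73, 5.56, 8.25 and 8.01 in the GR group, 9.50, 10.93, 11.14, 10.10 and 10.59 in the Pax3GR group, 10.13, 7.995, 5.36, 10.13 and 7.38 in the Zic1GR group and 13.01, 13.06, 13.52, 13.39 and 13.49 in the combination group. Every combination array of this crest repressor gene was above every other array, while GR and Zic1GR overlapped. The combination was 7.17-fold above Pax3GR, a log2 difference of 2.84 ± 0.73 (SE, n = 5 arrays per group, adjusted p = 0.0186). Its non-additivity was 2.22 ± 1.03 (SE, n = 5 arrays per group, adjusted p = 0.102), which does not pass the threshold. The 95% interval, which is not adjusted for the number of probe sets tested, was 0.04 to 4.39. It runs from almost no synergy to a synergy of several log2. It did pass when GR replicate 3 (adjusted p = 0.0416), Zic1GR replicate 1 (0.0461) or Zic1GR replicate 4 (0.0456) was left out.

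*foxd3.S* measured 2.55, 2.48, 2.53, 2.50 and 2.52 on the GR arrays, 3.24, 7.16, 4.85, 3.94 and 4.70 with Pax3GR, 8.17, 4.95, 3.76, 8.69 and 5.702 with Zic1GR and 8.62, 9.47, 12.42, 11.37 and 11.66 with both. All GR arrays of this forkhead crest specifier were below log2 4, the single-factor arrays were scattered, and 1 Zic1GR array overlapped the combination range. The combination was above Zic1GR by 4.45 ± 0.91 (SE, n = 5 arrays per group, adjusted p = 0.00259) and its non-additivity was 2.19 (adjusted p = 0.194). With all values below log2 4 set to 4, the non-additivity was 3.46 (adjusted p = 0.0360) and passes the threshold, so the call for this gene turns on readings below background, and under the same setting the synergistic rise class held 29 probe sets. The other copy, *foxd3.L*, had means of 2.78, 10.66, 4.78 and 12.17 and a non-additivity of -0.49 (adjusted p = 0.705), and its combination was not called above Pax3GR (adjusted p = 0.159).

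*sox9.L* gave log2 intensities of 6.09, 5.77, 4.67, 5.56 and 5.66 in GR caps, 7.13, 8.80, 8.61, 8.07 and 8.001 in Pax3GR caps, 7.99, 7.31, 7.12, 7.59 and 5.84 in Zic1GR caps and 9.66, 10.30, 11.44, 10.76 and 11.24 in the combination. All combination arrays of this SoxE factor lay above all others, and the group means stood in the order GR, Zic1GR, Pax3GR, combination. The combination was above Pax3GR by 2.56 ± 0.42 (SE, n = 5 arrays per group, adjusted p = 7.10e-04) and above Zic1GR by 3.51 (adjusted p = 8.88e-06), with a non-additivity of 0.94 (adjusted p = 0.221). The second copy, *sox9.S*, had means of 8.95, 12.21, 11.53 and 13.60, and *sox8.L*, a SoxE factor as well, 6.92, 10.88, 10.78 and 12.73. Of these, *sox8.L* was below the sum by -2.003 (adjusted p = 0.00827) and *sox9.S* was not called (adjusted p = 0.109, or 0.0469 without Zic1GR replicate 5). Their predictions were 14.73 for *sox8.L* and 14.80 for *sox9.S*, while the highest group mean of any probe set was 15.33. Whether the top of the scale limited these 2 combination levels was not tested. The means of *pdgfra.L*, a receptor carried by migrating crest, were 3.78, 7.41, 7.79 and 10.45, and the combination was 6.33-fold above the higher single factor. Also highest in the combination were *tfap2e.L*, an AP-2 factor, *tcf7.S*, a nuclear effector of Wnt signals, *nid2.L*, a basement membrane protein, and *slit2.S*, a guidance ligand, with combination means of 7.48, 11.74, 12.20 and 9.70 and non-additivity of 0.25, -1.78, 0.39 and -2.57. Among them *tcf7.S* and *slit2.S* were called below the sum.

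**Figure D2:**
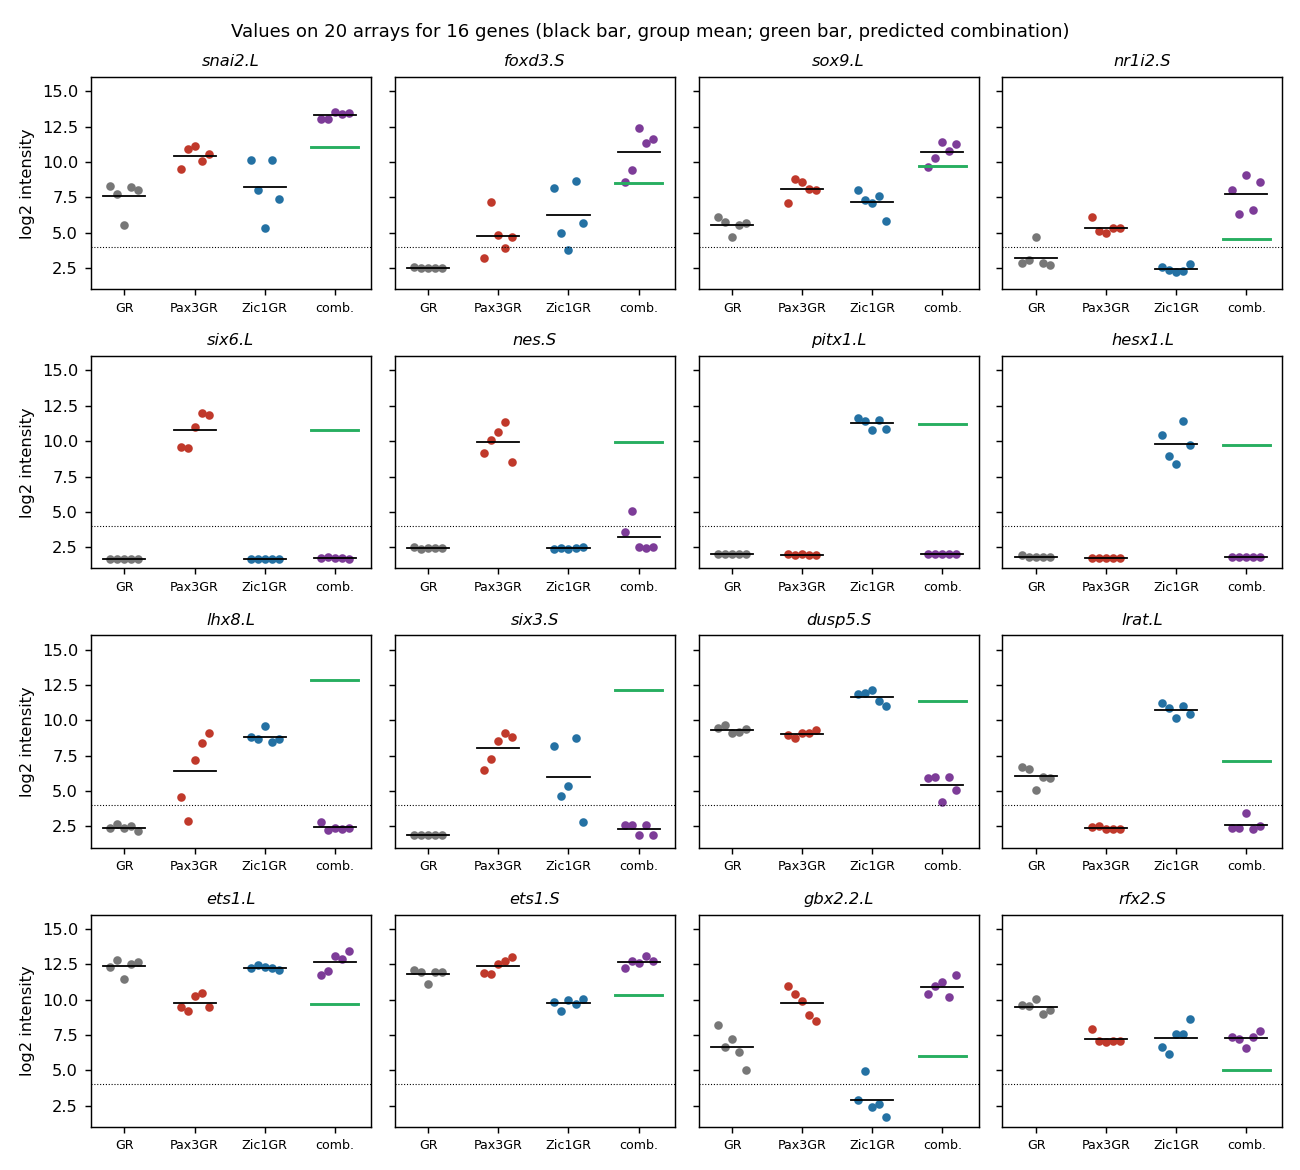
Log2 intensity of 16 genes on each of the 20 arrays, with the group mean (black bar), the predicted combination level (green bar) and log2 4 (dotted line). The combination points of *snai2.L* and *sox9.L* lie above those of every other group, those of *six6.L*, *pitx1.L* and *hesx1.L* lie at the level of GR, and those of *dusp5.S* lie below all groups.

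Where both factors raised a gene, the combination mostly stayed at the level that a single factor reached. Both raised 3134 members, beside 16.2% of all tested probe sets, and 1304 of them by at least 1 log2 each. In these 1304 the median rise was 2.04 with Pax3GR, 1.91 with Zic1GR and 1.86 with both, whereas the median of the summed rises was 4.06. The 1304 were chosen for high Pax3GR and Zic1GR means, the same means that enter the sum. Their distance from the sum is therefore a description and not a test. The combination was not called different from the higher single factor for 1084, was below it for 196 and above it for 24. The overlapping rise class (1515 members, 8.25% of them, beside 8.19% of all tested) had a median non-additivity of -1.80, and in 1213 of its members all 4 group means lay between log2 4 and 14, away from both ends of the scale.

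Its named genes include the receptor *fzd7.L*, which binds Wnt ligands, with means of 2.40, 8.66, 8.35 and 8.24 in GR, Pax3GR, Zic1GR and the combination, 3 nearly equal levels against a GR group below log2 4. The Hedgehog transducer *smo.L* had 5.31, 10.32, 9.63 and 9.56, its transcription factor *gli2.L* 3.15, 7.87, 7.48 and 8.46 and its inhibitor *sufu.L* 3.41, 5.73, 5.89 and 6.01. All 3 were below the sum, by -5.08, -3.74 and -2.195, although none of their combination levels was called different from either single factor. The posterior neural factor gene *irx3.L* had 2.26, 9.30, 7.25 and 7.20, with the combination level below Pax3GR by -2.11 (adjusted p = 0.00993) and at that of Zic1GR. The BMP family ligand *admp.S*, which is made on the dorsal side, had 2.27, 8.74, 7.47 and 5.99, and the paired-box gene *pax2.L* 2.11, 9.44, 6.89 and 5.88, with non-additivity of -7.95 (adjusted p = 8.18e-07) and -8.34 (adjusted p = 8.26e-04), which became -6.22 and -6.04 with all values below log2 4 set to 4. In both, the combination mean was lower than the Pax3GR and Zic1GR means, and it was called below Pax3GR for *admp.S* (adjusted p = 0.00371) but not for *pax2.L* (0.0528). Replication genes took part with smaller changes, such as geminin, *gmnn.S*, at 11.87, 13.30, 13.10 and 12.97, and cyclin A2, *ccna2.L*, at 11.78, 12.46, 12.99 and 12.41.

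Shared falls had the same form. Both factors lowered 1816 members (both called down in 14.7% of all tested), 970 of them by at least 1 log2 each, with a median of -1.94 for Pax3GR, -1.82 for Zic1GR and -1.66 for the combination against a summed -3.76. The combination was not called different from the lower single factor for 910 of the 970, was above it for 54 and below it for 6. The 970 were likewise chosen for low single-factor means, so their distance from the sum is a description and not a test. In the overlapping fall class (1130 members, 6.15% of them, beside 10.8% of all tested) 183 combination levels were no longer called different from GR. The number in this class was 2220 without the limit on the prediction, because a shared fall often predicts a level under log2 4.

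Epidermal and multiciliated genes were among the named members of this kind. *rfx2.S* was at 9.61, 9.56, 10.06, 8.96 and 9.23 in the GR group, 7.92, 7.04, 6.99, 7.06 and 7.08 in the Pax3GR group, 6.68, 6.16, 7.56, 7.54 and 8.60 in the Zic1GR group and 7.35, 7.18, 6.57, 7.33 and 7.79 in the combination group. The Pax3GR, Zic1GR and combination groups of this ciliogenic factor overlapped one another, and all of their values were below every GR value. The prediction was 5.04 and the non-additivity 2.21 ± 0.51 (SE, n = 5 arrays per group, adjusted p = 0.00328). Other multiciliated genes were the tubulin *tubb4b.S* at 14.08, 12.63, 11.16 and 12.21 and the axonemal *cfap45.L* at 10.23, 7.61, 7.27 and 7.82, both above the sum, and the basal body gene regulator *ccno.S* at 13.48, 9.07, 10.26 and 10.99 (adjusted p = 0.034), whose call was lost on leaving out any of 9 arrays. Among epidermal genes, the ligand *bmp4.L* had 10.57, 8.99, 9.36 and 9.64, the uroplakin *upk1b.S* 12.67, 11.60, 11.54 and 11.94 and the BMP target *id2.S* 13.70, 9.69, 11.98 and 11.37, with non-additivity of 1.87 (adjusted p = 0.00137), 1.47 (adjusted p = 0.00208) and 3.40 (adjusted p = 0.01). The cell junction gene *ppl.L*, periplakin, had 13.06, 9.47, 10.39 and 11.35 and 4.56 (adjusted p = 0.00483). The values largest in size in this class, *mmp3.L* (6.94), *fucolectin.S* (6.05), *slc18a1.S* (5.47) and *rab25.L* (5.41), had spread-out single-factor arrays, and in all 4 the combination was not called different from GR or from either factor.

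Mutual suppression covered 52 members, 0.283% of them, beside 0.336% of all tested. In 46 of the 52 the combination was not called different from GR. *lhx8.L* measured 2.36, 2.64, 2.37, 2.52 and 2.17 on the GR arrays, 4.61, 2.85, 7.17, 8.41 and 9.13 with Pax3GR, 8.79, 8.66, 9.62, 8.50 and 8.71 with Zic1GR and 2.82, 2.25, 2.37, 2.33 and 2.37 with both. Every GR and combination array of this LIM homeobox gene was below log2 4, while all 5 Zic1GR arrays and 4 of the 5 Pax3GR arrays were above it. With the combination set to log2 4, it was at least 28.9-fold lower than Zic1GR and at least 5.4-fold lower than Pax3GR. The non-additivity was -10.45 ± 1.15 (SE, n = 5 arrays per group, adjusted p = 3.12e-06), and -7.52 with every value below log2 4 set to 4, since readings below log2 4 have no reliable order. Where a floored value is given for a gene that follows, it is at the same setting. The median over the class was -4.84 as measured and -4.30 floored.

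*six3.S* gave log2 intensities of 1.89, 1.86, 1.86, 1.88 and 1.90 in GR caps, 6.47, 7.25, 8.56, 9.08 and 8.81 in Pax3GR caps, 8.21, 4.64, 5.37, 8.78 and 2.83 in Zic1GR caps and 2.59, 2.60, 1.90, 2.63 and 1.90 in the combination. All Pax3GR values of this forebrain and eye homeobox gene and all but 1 of its Zic1GR values were above log2 4, and all GR and combination values were below it. The non-additivity was -9.80 ± 1.18 (SE, n = 5 arrays per group, adjusted p = 9.37e-06), or -6.23 floored. The notochord homeobox gene *not.L* had means of 2.80, 7.95, 7.16 and 3.44, and *asb1.L*, a SOCS-box protein gene, 3.77, 8.96, 8.34 and 3.51. The FGF antagonist *spry2.S* had 1.97, 7.72, 7.28 and 5.33, with a combination level that stayed above GR by 3.35 (adjusted p = 7.33e-06), and its second copy *spry2.L* 3.18, 7.79, 7.05 and 4.93. The RNA-binding protein gene *mex3b.S* had 3.17, 7.17, 7.55 and 4.65, and the placode gene *eya1.L*, whose product is a transcriptional coactivator, 2.09, 3.51, 5.97 and 2.25. The Pax3GR mean of *eya1.L* was itself below log2 4, where readings have no reliable order, so its rise with Pax3GR is uncertain. The head factor *otx2.S* had 9.44, 10.68, 12.96 and 9.30 and the Notch feedback regulator *nrarp.S* 11.69, 12.496, 12.77 and 11.56. In these last 2, all groups were far above log2 4, so the return to the GR level was measured within the range of the array.

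Genes that Pax3GR alone raised were often lower when Zic1GR was present. Of the 1202 members raised at least 1 log2 by Pax3GR and not raised by Zic1GR (5.93% of all tested met this rule), the combination was below Pax3GR in 486 (40.4%), above it in 12 and not called different in 704, where 5.98% of all tested probe sets were below Pax3GR and 4.28% above it. The median rise was 2.204 with Pax3GR and 1.06 with both. The 1202 were chosen for a high Pax3GR mean, the same mean that the combination was compared with. All tested probe sets were not chosen in this way, so the 40.4% is a description and not a test. The class held 353 members (1.92% of them, beside 1.73% of all tested), and in 214 of them the combination was not called different from GR. The GR mean was below log2 4 in 202 of the 353, so that many of these rises started from background.

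*six6.L* was at 1.69, 1.66, 1.67, 1.68 and 1.67 in the GR group, 9.61, 9.49, 10.98, 11.97 and 11.86 in the Pax3GR group, 1.64, 1.67, 1.66, 1.67 and 1.70 in the Zic1GR group and 1.71, 1.84, 1.71, 1.72 and 1.70 in the combination group. The 5 Pax3GR arrays of this eye field homeobox gene were the only ones above log2 4. The combination was at least 110-fold lower than Pax3GR, with a non-additivity of -9.04 ± 0.51 (SE, n = 5 arrays per group, adjusted p = 6.82e-10), or -6.78 floored. The second copy, *six6.S*, had means of 2.25, 9.28, 2.02 and 3.28 and -5.76 (adjusted p = 9.29e-05), floored -4.84. *nes.S* measured 2.50, 2.41, 2.44, 2.45 and 2.44 on the GR arrays, 9.16, 10.12, 10.63, 11.32 and 8.54 with Pax3GR, 2.37, 2.45, 2.38, 2.43 and 2.51 with Zic1GR and 3.56, 5.09, 2.51, 2.46 and 2.50 with both. Nestin, an intermediate filament of neural progenitors, was above log2 4 on all Pax3GR arrays and on 1 combination array. Its non-additivity was -6.71 (adjusted p = 1.28e-06), or -5.74 floored. The neural tube homeobox gene *nkx6-2.L* had means of 2.28, 9.34, 2.25 and 3.49, and *dio3.L*, which codes for a deiodinase that inactivates thyroid hormone, 3.67, 12.17, 5.61 and 6.80. For *dio3.L* the combination stayed above GR by 3.12 (adjusted p = 0.0121). The transporter *slc5a8.1.L* had 2.46, 10.05, 2.44 and 2.51, the autophagy gene *gabarapl1.S* 2.42, 10.33, 3.80 and 4.69, and the secreted Wnt modulators *dkk2.L* and *frzb.L* 2.41, 7.69, 2.39 and 2.55 and 2.41, 8.82, 2.39 and 3.002. A probe set annotated *frzb*, with no copy given, had the reverse pattern of 4.03, 4.199, 7.96 and 4.35, so probe sets of this gene disagree. The pigment cell factor *mitf.L* had 1.92, 5.55, 1.90 and 2.88 and -2.64 (adjusted p = 0.0269), floored -1.61.

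Not every Pax3 target followed this course. The hatching gland protease *astl3a.1.L* had means of 2.01, 14.66, 2.05 and 13.97, with -0.72 (adjusted p = 0.0731), and the caudal gene *cdx4.L* 2.07, 9.73, 1.99 and 10.25, with 0.61 (adjusted p = 0.544). Both were at about their Pax3GR level in the combination, neither was called below it (adjusted p = 0.0511 and 0.593), and for *astl3a.1.L* the interval of the non-additivity was -1.37 to -0.08. The mesoderm factor *foxc2.L* had 3.35, 9.75, 5.47 and 10.04 and was not called either (adjusted p = 0.111). These results turn on the setting. *astl3a.1.L* was called below the sum without combination replicate 2 (adjusted p = 0.0233) or 4 (0.0345) and with array weights (-0.72, adjusted p = 0.0179). *cdx4.L* was called above it with array weights (1.497, adjusted p = 0.0258), and *foxc2.L* below it with array weights (-1.69, adjusted p = 0.0466) and without Zic1GR replicate 3 (0.0376).

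The reverse was seen for genes that Zic1GR alone raised. Of 1101 members raised at least 1 log2 by Zic1GR and not raised by Pax3GR (5.41% of all tested met this rule), the combination was below Zic1GR in 368 (33.4%), above it in 2 and not called different in 731, where 6.25% of all tested were below Zic1GR and 7.05% above it. Whether this share differs from that of the Pax3 rises was not tested. The 1101 were likewise chosen for a high Zic1GR mean, so the 33.4% beside 6.25% is a description and not a test. The median rise was 1.61 with Zic1GR and 0.77 with both. The class held 266 members (1.45% of them, beside 1.31% of all tested), 194 of them not called different from GR in the combination, and without Zic1GR replicate 5 it held 423.

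*pitx1.L* gave log2 intensities of 2.05, 1.99, 2.02, 2.02 and 2.01 in GR caps, 2.01, 1.97, 2.02, 1.96 and 1.96 in Pax3GR caps, 11.66, 11.46, 10.80, 11.52 and 10.83 in Zic1GR caps and 2.03, 2.04, 2.05, 2.02 and 2.05 in the combination. Zic1GR arrays of this homeobox gene of the cement gland and mouth region were all above log2 10, and the other 15 arrays were all near log2 2. The combination was at least 153-fold lower than Zic1GR, with a non-additivity of -9.18 ± 0.19 (SE, n = 5 arrays per group, adjusted p = 3.08e-16), or -7.25 floored. *hesx1.L* was at 1.95, 1.79, 1.79, 1.80 and 1.80 in the GR group, 1.77, 1.75, 1.77, 1.75 and 1.75 in the Pax3GR group, 10.41, 8.97, 8.35, 11.41 and 9.72 in the Zic1GR group and 1.80, 1.79, 1.80, 1.78 and 1.80 in the combination group. The anterior head repressor *hesx1.L* thus had the same layout, and its second copy *hesx1.S* had means of 1.85, 1.83, 8.26 and 1.86. The proneural factor *neurog2.S* had 2.02, 1.996, 9.096 and 2.05, the forebrain factor *fezf2.L* 2.04, 2.02, 8.18 and 2.05, and the organiser gene *gsc.L* 1.72, 1.70, 6.69 and 1.73. The muscle methyltransferase gene *smyd1.L* had 2.07, 2.01, 10.99 and 2.10, the muscle troponin *tnnc1.L* 2.53, 2.50, 7.32 and 3.24 and the cadherin *cdh11.S* 2.50, 2.50, 6.85 and 2.53.

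In 22 of the 266 suppressed Zic1 rises the combination was called below GR as well, while in 50 it was called above GR. The means of *otx2.L* were 10.05, 9.93, 14.31 and 8.39, with a difference from GR of -1.67 (adjusted p = 0.0209). The neural SoxB factor *sox3.L* had 4.43, 4.65, 8.21 and 2.28, and since all its combination arrays were below log2 4, it was at least 1.35-fold lower than GR (adjusted p = 0.00331). The eye gene *pax6.L* had 5.95, 6.92, 9.69 and 3.45 (adjusted p = 0.0436 against GR), with 4 of its 5 combination arrays below log2 4 and 1 within the GR range, so the size of its difference from GR is not given. *dusp5.S* measured 9.44, 9.66, 9.11, 9.19 and 9.36 on the GR arrays, 8.96, 8.75, 9.09, 9.08 and 9.31 with Pax3GR, 11.88, 11.93, 12.15, 11.36 and 11.02 with Zic1GR and 5.91, 6.01, 4.25, 6.02 and 5.07 with both. The combination arrays of this ERK phosphatase gene were all below every other array, and the Pax3GR and GR ranges overlapped. The combination was 14.9-fold below GR and 74.5-fold below Zic1GR, with a non-additivity of -5.91 ± 0.41 (SE, n = 5 arrays per group, adjusted p = 1.09e-08). Some genes of retinoid metabolism were also high with Zic1GR and lower in the combination. *cyp26c1.S*, whose product degrades retinoic acid, had 1.89, 2.26, 10.39 and 2.76, and *cyp26a1.S* and *cyp26a1.L*, of the same enzyme family, 3.15, 3.87, 10.82 and 5.17 and 5.09, 3.80, 10.14 and 3.60. They do not stand for all 12 retinoic acid genes among members, of which Zic1GR raised 5 and lowered 2. Of the 12, 5 were called below the sum and 2 above it, beside 21.2% and 13.4% of all member genes.

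The medians over each class differed between the arrays of a group. For the suppressed Pax3 rises, the median difference from GR was 2.75, 2.82, 3.78, 4.32 and 4.24 on the Pax3GR arrays and 0.83, 1.103, 0.08, 1.06 and 0.07 on the combination arrays. The 2 sets do not overlap, and 2 combination arrays were at the level of GR while the other 3 kept part of the rise. For the suppressed Zic1 rises, the Zic1GR arrays had 3.17, 2.84, 2.45, 3.16 and 2.14 and the combination arrays 0.29, 0.31, 0.06, 0.08 and 0.06. These classes were defined by the same contrasts, so the separation itself is a description and not a test.

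**Figure D3:**
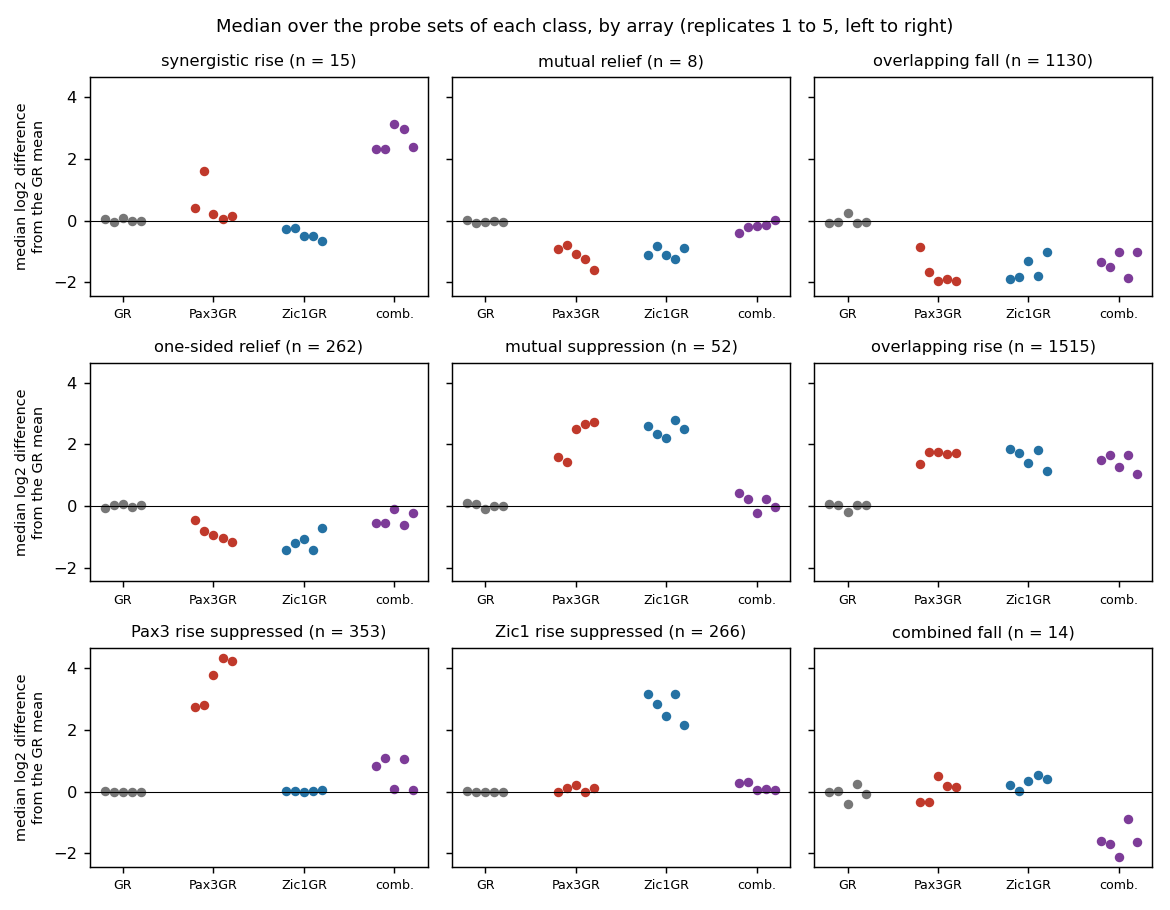
Median over the probe sets of each class of the log2 difference from the GR mean, 1 point per array, in 4 groups of 5. The combination points lie near 0 for the suppressed Zic1 rises, between 0.07 and 1.103 for the suppressed Pax3 rises, below every single-factor point for mutual suppression, and at the single-factor level for the overlapping rise and fall.

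Combined fall covered 14 members (0.0762% of them, beside 0.0682% of all tested). It does not mirror the synergistic rise, since members that a single factor raised, such as *dusp5.S*, were sorted elsewhere. With no condition on the single factors, 59 members had a combination called below GR, Pax3GR and Zic1GR, beside 0.292% of all tested. Of these, 36 were called below the sum and 23 in neither direction. Its 4 named genes were the glycolytic regulator *pfkfb3.S* with means of 9.97, 10.45, 10.73 and 8.11, the Notch ligand *dll1.L* with 11.14, 10.37, 11.34 and 8.75, the ERK phosphatase *dusp6.L* with 11.20, 11.56, 11.63 and 10.30 and the laminin receptor subunit *itga6.L* with 7.70, 7.43, 7.94 and 6.06. The non-additivity was -3.10 (adjusted p = 5.68e-04), -1.83 (adjusted p = 8.93e-04), -1.68 (adjusted p = 6.39e-04) and -1.62 (adjusted p = 0.00923). Pax3GR alone lowered *dll1.L* (adjusted p = 0.0162), whereas for the other 3 no single factor was called. The second *dusp6* copy, *dusp6.S*, had 10.50, 11.06, 10.93 and 11.35 and was not called (adjusted p = 0.811).

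Relief of a fall was mostly one-sided (262 members, 1.43% of them, beside 1.56% of all tested). The transcription factor gene *ets1*, expressed in crest and blood vessels, showed it in both copies with opposite factors. *ets1.L* gave log2 intensities of 12.33, 12.81, 11.42, 12.54 and 12.66 in GR caps, 9.50, 9.21, 10.28, 10.47 and 9.45 in Pax3GR caps, 12.26, 12.47, 12.31, 12.21 and 12.06 in Zic1GR caps and 11.77, 11.99, 13.07, 12.88 and 13.44 in the combination. Only the Pax3GR arrays of this copy were low. *ets1.S* was at 12.08, 11.95, 11.09, 11.96 and 11.97 in the GR group, 11.89, 11.84, 12.53, 12.74 and 12.99 in the Pax3GR group, 9.80, 9.21, 9.98, 9.70 and 10.04 in the Zic1GR group and 12.25, 12.70, 12.59, 13.11 and 12.70 in the combination group. In the S copy only the Zic1GR arrays were low. Pax3GR changed *ets1.L* by -2.57 (adjusted p = 5.23e-06), Zic1GR changed *ets1.S* by -2.06 (adjusted p = 3.67e-06), and the combination was above the lowered group in each, by 2.85 (adjusted p = 2.07e-05) and 2.92 (adjusted p = 1.23e-07). The non-additivity was 2.94 ± 0.46 (SE, n = 5 arrays per group, adjusted p = 1.52e-04) and 2.33 ± 0.35 (SE, n = 5 arrays per group, adjusted p = 9.11e-05). Of the other tested *ets1.L* probe sets among members, 1 of 2 was called in the same direction.

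*gbx2.2.L* measured 8.20, 6.68, 7.23, 6.27 and 5.004 on the GR arrays, 10.92, 10.39, 9.88, 8.93 and 8.49 with Pax3GR, 2.93, 4.94, 2.43, 2.64 and 1.71 with Zic1GR and 10.38, 10.98, 11.21, 10.19 and 11.74 with both. Pax3GR raised and Zic1GR lowered this posterior homeobox gene, and the combination overlapped the Pax3GR range. Its non-additivity was 4.93 ± 0.88 (SE, n = 5 arrays per group, adjusted p = 4.90e-04). The border gene *msx2.L* had means of 10.51, 10.38, 8.50 and 11.32, the receptor phosphatase *ptprz1.L* 9.17, 10.05, 4.79 and 10.38, the fatty acid transporter *slc27a2.L* 10.46, 9.39, 6.60 and 10.39, the Wnt receptor *fzd10.S* 11.45, 11.02, 9.52 and 11.63 and the ligand *wnt11b.L* 9.84, 8.75, 5.68 and 9.13. In all 5 Zic1GR alone lowered the level and the combination was called above Zic1GR. Mutual relief held 8 members (0.0436% of them, beside 0.078% of all tested), among them the anion exchanger *slc4a1.L* of ionocytes at 10.30, 8.08, 8.49 and 9.71, the glycerol phosphate dehydrogenase *gpd1.L* at 12.70, 12.02, 11.82 and 12.78 and *rspry1.S* at 11.26, 10.24, 10.28 and 10.71. Leaving out single arrays gave between 2 (without combination replicate 3) and 23 (without Pax3GR replicate 1) members, past 1.5 times the count or below it by that factor for 14 of the 20 arrays, so this class is not a stable count.

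The factors had opposite effects of at least 1 log2 each on 140 members, 95 raised by Pax3GR and lowered by Zic1GR (beside 0.478% of all tested) and 45 the reverse (beside 0.234%). The combination differed from Zic1GR only in 71, from both in 44, from Pax3GR only in 22 and from neither in 3. Its mean was nearer to Pax3GR in 98 and nearer to Zic1GR in 42. By direction, 76 of the 95 raised by Pax3GR and 22 of the 45 lowered by it were nearer to the Pax3GR mean. The number that differed from Pax3GR only was 40 without Pax3GR replicate 1 and lay beyond 1.5 times 22 also without Pax3GR replicate 2.

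Among those raised by Pax3GR, *cnfn.1.L*, a cornified envelope gene, had means of 4.68, 12.96, 3.04 and 11.81, *mal.L*, a membrane raft protein gene, 6.67, 11.80, 3.12 and 9.32, and the filamin *flnc.L* 4.88, 10.66, 3.05 and 10.29. None was called for non-additivity. In all 3 the combination was called above Zic1GR and not called different from Pax3GR. Among those raised by Zic1GR, *lrat.L* measured 6.68, 6.53, 5.096, 6.01 and 5.89 on the GR arrays, 2.44, 2.53, 2.35, 2.31 and 2.32 with Pax3GR, 11.24, 10.84, 10.17, 10.9997 and 10.48 with Zic1GR and 2.37, 2.36, 3.45, 2.35 and 2.56 with both. The combination of *lrat.L*, which codes for the enzyme that esterifies retinol, was at the Pax3GR level and below all GR values. Its non-additivity was -4.48 ± 0.39 (SE, n = 5 arrays per group, adjusted p = 1.79e-07), or -4.71 floored. The chemokine *cxcl12.L* had 8.27, 2.31, 10.12 and 3.205, also at the Pax3GR level, and the glycosyltransferase *galnt16.L* 6.38, 4.97, 10.74 and 8.28, between the factors and different from both.

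**Figure D4:**
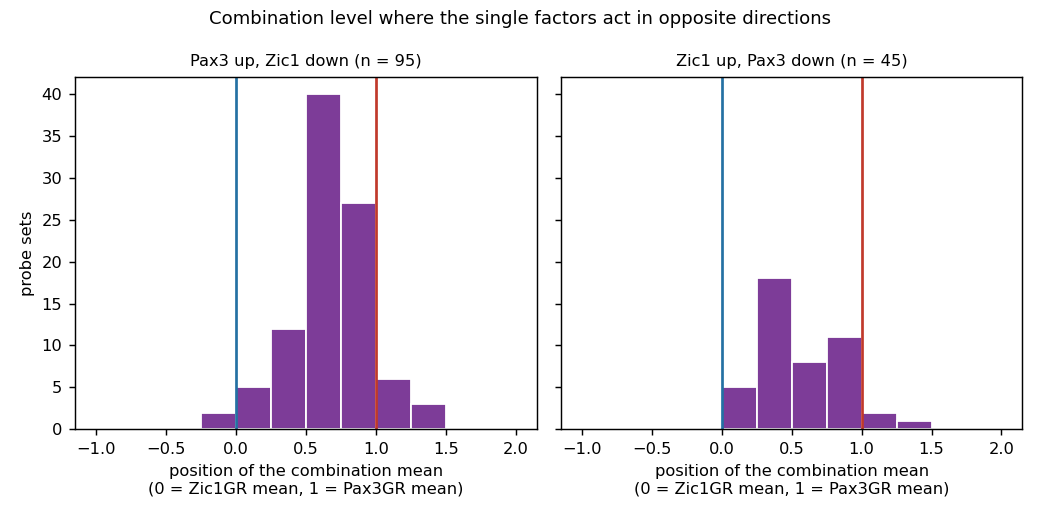
Number of probe sets by the position of the combination mean between the Zic1GR mean (0, blue line) and the Pax3GR mean (1, red line), for the 95 members raised by Pax3GR and lowered by Zic1GR (left) and the 45 with the reverse effects (right). Most of the 95 lie nearer to Pax3GR, and the 45 are spread over both sides.

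Grouped by function, 19 of 21 neural and 12 of 17 placodal members were called below the sum, and 21 of 39 epidermal and 6 of 10 multiciliated members above it. Over the 7721 member genes, at 1 probe set each, 13.4% were called above the sum and 21.2% below it, with a median of -0.16. Of 21 neural plate and neuron genes 19 were below and 0 above, with a median of -5.76 (-4.69 floored). Of these 19, 7 were an overlapping rise, 5 a suppressed Pax3 rise, 5 a suppressed Zic1 rise and 2 a mutual suppression. A further 13 neural genes were predicted below the range and 5 above it, and are not counted. The neuronal tubulin *tubb3.L*, at 2.30, 9.03, 2.46 and 6.77, was 1 of the 2 not called (-2.42, adjusted p = 0.164). *tubb3.L* was called below the sum with array weights (-3.98, adjusted p = 0.00113), without the 4 arrays that correlate least with their group (-4.06, adjusted p = 0.00367) and without Pax3GR replicate 1 (0.0328) or combination replicate 4 (0.0359). Of 17 preplacodal and placode genes 12 were below and 1, *znf703.S*, above, with a median of -5.15 (-4.26 floored). Placode genes left out were 11 predicted below the range and 5 above it. Of 17 mesoderm and muscle genes 12 were below and 1 above, with 24 left out below the range and 4 above it. Of 21 FGF pathway genes 14 were below and 1 above, of 7 Hedgehog genes 4 and 0, and of 77 cell division genes 31 and 0. The Hedgehog list had means of only 3.92 to 5.04 on the GR arrays and a median of -2.195 (-0.98 floored). Floored, its member *smo.S* lost its call (adjusted p = 0.0662). Left out below the range were 10 FGF, 7 Hedgehog and 8 cell division genes, and above it 1 FGF gene.

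The neural crest list stood between these. Of its 34 members 11 were below the sum and 6 above, with a median of -0.77 (-0.50 floored), and 17 were not called. A further 11 crest genes were predicted below the range and 5 above it, and are not counted. Those below included *cpn1.S* and *cdh11.S*, which only Zic1GR raised, and the *myc* family gene *mycn.S* at 2.80, 10.12, 6.03 and 9.31. Those above included both *ets1* copies. The mean level of the crest list was 7.37 to 8.16 on the GR arrays, 9.02 to 9.75 on the Pax3GR arrays, 8.82 to 9.64 on the Zic1GR arrays and 9.80 to 10.3 on the combination arrays, with the last above every other array. Of the 16 neural plate border members 4 were above the sum and 3 below, with 9 border genes left out above the range and 0 below it.

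Of 39 epidermal genes 21 were above the sum and 4 below, with a median of 1.22, of 10 multiciliated genes 6 and 0, and of 5 ionocyte genes 3 and 0. Mucus-secreting cell genes, only 4, had 1 above and 0 below, with a median of 0.90. The cement gland list did not share the excess above the sum, with 4 of 9 genes below and 0 above. The cement gland median was 0.20 as measured and -0.39 floored. The epidermal list had mean levels of 12.96 to 13.05 on the GR arrays, 10.96 to 12.25 on the Pax3GR arrays, 12.05 to 12.67 on the Zic1GR arrays and 11.32 to 12.57 on the combination arrays, so that all groups but GR overlapped. For 17 multiciliated, 14 ionocyte, 4 epidermal and 3 mucus-secreting cell genes on the array the prediction was below log2 4, and they are not counted. Left out of the cement gland list were 3 genes below the range and 2 above it, and of the hatching gland list 5 and 3. Of 12 hatching gland genes 2 were below the sum, the Krüppel-like factor *klf17.L* at 10.18, 11.54, 12.38 and 12.15 and the protease *ctsb.L* at 12.20, 13.13, 12.89 and 12.76, and 10 were not called. These lists were drawn up with results of these arrays known, and no test of a list as a whole was made. A gene with a GR mean below log2 4 could be a member only where a single-factor mean was higher. That higher mean is subtracted in the non-additivity, so the range itself favours values below the sum for such genes. The mesoderm list, at a mean of 2.32 to 2.67 on the GR arrays, is of this kind. The neural and placode lists had higher means on the GR arrays, 5.51 to 5.69 and 6.36 to 6.57. They too hold genes with a GR mean below log2 4, among them *six6.S* and *eya1.L*. The shares of these lists beside that of all member genes are a description only.

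**Figure D5:**
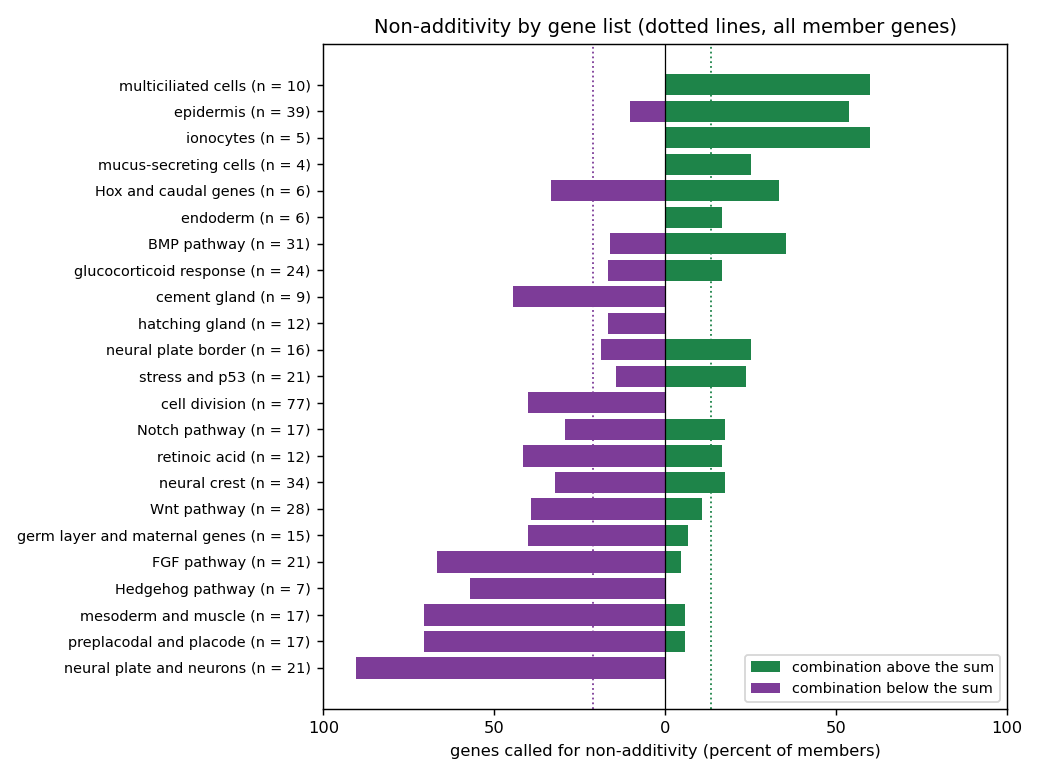
Percent of the member genes of each of 23 lists called above (green, right) or below (purple, left) the sum of the separate effects, ordered by median non-additivity, with the number of members. The dotted lines mark 13.4% above and 21.2% below over all member genes, and the neural, placodal, mesoderm and FGF lists extend far to the left of theirs. The shares are a description and not a test.

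*Xenopus laevis* keeps many genes as 2 related copies, named L and S after the long and short chromosome of a pair. Of 1277 copy pairs with both copies among members, both were called in 200, only 1 copy in 455 and neither in 622. The 200 took the same direction in 186 and opposite directions in 14. Both copies were called at 1 log2 or more in 104 pairs, and 69 of these had both in the same class. Across pairs the non-additivity of the copies had a Pearson r of 0.54 and a Spearman rho of 0.46, as a description, since near-identical copies can share probes. Both copies of *six6*, *hesx1*, *spry2*, *cyp26a1* and *meis3* took the same direction, the last at 1.01 and 1.12 for *meis3.L* and *meis3.S*, which Zic1GR lowered and Pax3GR raised.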

How the data were processed

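Gene expression was measured on Affymetrix arrays from animal cap RNA (100 ng per sample, amplified before labelling, per the labels' protocols). The authors deposited log2 intensities made with GCRMA in Partek, per the submitters' processing notes, which give no versions. GCRMA subtracts background by probe sequence and normalizes arrays to one another, which compresses values near background. The array's number limits the precision, not a read depth.

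The deposited log2 values were used as given. Groups came from the sample titles. 96 control probe sets were left out. limma 3.58.1 (R 4.3.3) fitted 1 mean per group over all 20 arrays, with 6 contrasts, eBayes and Benjamini-Hochberg adjustment over the 20519 probe sets with log2 4 on at least 5 arrays. Gene names came from the platform annotation, in which 15495 probe sets have 1 symbol, 279 several and 16765 none. For 15384 of those with 1 symbol the gene identifier was found in RefSeq's gene table, which updated 2 symbols. A gene stands for its probe set with the highest mean.

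Named genes were the most non-additive of each class, those with the smallest adjusted p and 1 uncalled gene of each of 23 lists, and, chosen after their values were seen, the genes highest in the combination and 18 further list members. The members and lists were chosen with earlier results of these data known. Where all 5 arrays of a group were below log2 4, that group was set to 4 and the fold is a lower bound. P-values measure the spread between these arrays. Same-numbered arrays of different groups were compared by their deviations from the group means: 8 of 30 pairs had r above 0.1 (range -0.38 to 0.47), so the numbers were not taken as pairs. The fit was tested on simulated data with changes planted away from both ends of the scale, and the class rules on made-up cases. Neither covers values near the ends of the scale. Alternatives covered the filter, the range, normalization, weights, the block and leaving out each array.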

Additional observations from a re-analysis of the deposited data

Results flagged for a closer look

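The difference that defines the comparison, an effect of 1 factor that depends on the presence of the other, passed the test in 2210 members above the sum and 3841 below it, as an interaction term in limma.

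Single arrays stood apart from the other 4 of their group, by a gap larger than Dixon's 95% value of 0.71 of the range, in 42 of 376 groups of values tested over the genes named in the text, and in 2 of 36 class medians. Chance flags about 1 group in 20. GR replicate 3 accounts for 11 of the 42 and Pax3GR replicate 1 for 11.

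On GR replicate 3, lower than the other GR arrays were *snai2.L* (5.56), *cyp26a1.L* (2.78), *dusp6.S* (9.21), *ets1.S* (11.09), *lin28a.S* (11.78), *mmp3.L* (9.62) and *wnt11b.L* (5.38). Higher there were *nr1i2.S* (4.72), *ppl.L* (13.47), *rspry1.S* (11.59) and *tubb4b.S* (14.52), and the median of the overlapping fall class (11.41). On GR replicate 2 *fucolectin.S* was at 13.09, and on GR replicate 5 *tsc22d3.S* was at 8.77. In the fit without GR replicate 3, *snai2.L* passed the threshold.

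On Pax3GR replicate 1, values nearer to GR than on the other Pax3GR arrays were those of *fzd7.L* (6.77), *gabarapl1.S* (7.31), *gmnn.S* (12.78), *meis3.S* (13.32), *mycn.S* (7.41), *pax2.L* (7.33), *rfx2.S* (7.92) and *spry2.L* (5.98), as was the median of the overlapping rise class (8.83). Also apart there were *dusp6.S* (10.33), *frzb* (7.53) and *sox3.L* (2.69). On Pax3GR replicate 2 *cfap45.L* was at 4.48 and *slit2.S* at 9.29.

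On the Zic1GR arrays, *cnfn.1.L* was at 5.09 and *lhx8.L* at 9.62 on replicate 3, and *galnt16.L* at 9.77 and *mal.L* at 6.77 on replicate 5. On the combination arrays, *asb1.L* was at 5.18 and *pax6.L* at 6.79 on replicate 1, *frzb.L* at 4.74 on replicate 2, *cyp26a1.S* at 9.12, *cyp26c1.S* at 5.95, *fzd7.L* at 6.26, *sox8.L* at 12.19 and *tat.S* at 4.69 on replicate 3, and *pou5f3.1.L* at 12.45, *ppl.L* at 9.25, *rab25.L* at 7.29 and *slc4a1.L* at 9.21 on replicate 4.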

How the results depend on the processing

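All 16 counts were recomputed under the alternatives named with the methods, and a count is given where it moved by more than 1.5 times. Members above and below the sum were 1087 and 2119 at an adjusted p under 0.01, 1072 and 1693 with 1 probe set per symbol, 5950 below with array weights and 3482 above with no limit on the prediction. Synergistic rises were 29 with values floored at log2 4, 39 with array weights, 23 without the 4 least correlated arrays, 5 per symbol and 4 at 0.01, and 10 to 25 on leaving out single arrays. Mutual relief was 0 at 0.01, 3 per symbol, 4 with the replicate block, 5 with median centring or without probe sets shared between transcripts, 16 without a limit, 74 with weights, 141 without the 4 arrays and 2 to 23 on leaving out single arrays. Overlapping falls were 543 per symbol, 590 at 0.01 and 2220 without a limit. One-sided relief was 106, 133, 444 without the 4 arrays and 394 with no minimum size. Mutual suppression was 22, 26, 32 with all groups between log2 4 and 14, 99 with weights and 110 without the 4 arrays. Overlapping rises were 572, 987 and 2447 with no minimum size. Suppressed Pax3 rises were 149, 229, 141 with all groups in range, 192 with log2 4 on 10 arrays and 534 with weights. Suppressed Zic1 rises were 104, 121, 139, 415 without the 4 arrays and 210 to 423 on leaving out single arrays. Combined falls were 4 per symbol and 27 without the 4 arrays. Opposed members were 55 per symbol, 76 at 0.01, 88 in range and 238 with weights. Those different from Pax3GR only were 9, 69 with weights, 43 without the 4 arrays and 16 to 40 on leaving out single arrays. Those different from Zic1GR only were 27, 44 and 43, and from both 17 per symbol, 17 at 0.01, 28, 100 and 85. Members highest in the combination were 27, 20 and 37. Under the replicate block the members were 2215 above and 3842 below the sum, and *ccno.S* lost its call (adjusted p = 0.0536). Floored at log2 4, *ggh.L* turned from -1.38 to 0.44 (not called), *cer1.S* (0.0599) and *mycn.S* (0.0639) lost their calls, and *tfap2e.L* gained one (0.0251). The cause of these moves was not tested. Of 126 called genes 116 kept their call and sign under all alternatives run for single genes. The filter, the range and the stricter adjusted p were not among these. The genes were named largely for a strong non-additivity, so their stability does not stand for that of all members. Values under log2 4 have no reliable order, which limits the classes that start from background.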

Other observations

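Genes of the glucocorticoid response and of stress were measured beside the classes, since the fused proteins are activated by hormone. Of 24 glucocorticoid response genes 4 were above the sum and 4 below it, and the median non-additivity was 0.21, beside -0.16 over all member genes. *tsc22d3.S*, a classical target of the glucocorticoid receptor, had means of 8.03, 9.93, 9.32 and 9.37 in GR, Pax3GR, Zic1GR and the combination, and *per2.L*, a clock gene that responds to glucocorticoid, 7.61, 6.21, 6.32 and 6.52. The first was an overlapping rise and the second an overlapping fall. Of 21 stress and p53 genes 5 were above the sum and 3 below it, among them the AP-1 genes *junb.L* at 10.22, 8.85, 8.91 and 9.63 (above it) and *jund.S* at 7.76, 9.83, 8.35 and 8.54 (below it). Since all caps received dexamethasone, the effect of the hormone itself was not analysed here.

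Of 15 germ layer and maternal genes 1 was above the sum and 6 were below it, with a median of -1.55. Both copies of the Wnt pathway transcription factor gene *tcf7l1* were called above GR with Zic1GR and below GR in the combination, with means of 12.91, 12.39, 13.93 and 11.79 for *tcf7l1.L* and 7.02, 5.98, 9.76 and 4.11 for *tcf7l1.S*, and non-additivity of -1.62 (adjusted p = 5.19e-05) and -4.61 (adjusted p = 9.56e-04). The RNA-binding gene *lin28a.S*, at 12.45, 13.28, 13.40 and 13.16, and *dppa2.L*, at 7.18, 9.12, 9.09 and 8.35, were overlapping rises. *pou5f3.1.L*, an Oct4 relative, had 13.56, 12.88, 13.28 and 13.02 and a non-additivity of 0.42 that was not called (adjusted p = 0.104), although it was called without combination replicate 4 (0.00938), with array weights (0.54, adjusted p = 0.00843) and without the 4 arrays that correlate least with their group (0.63, adjusted p = 0.00387). The mineralocorticoid receptor gene *nr3c2.L* was raised by Pax3GR alone, with 2.34, 7.11, 2.30 and 3.13, and the liver enzyme gene *tat.S* by Zic1GR alone, with 2.88, 2.73, 6.63 and 3.40, and both were lower in the combination than with that factor.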
